A study of Mus musculus with 2 samples.

Results

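Vessels through which lymphocytes enter and leave tissue were followed in mouse breast tumour RNA by means of 10 genes. These genes mark high endothelial venules, lymphatic vessels and the lymphatic sinuses of lymph nodes. The members were chosen by their symbols, as a fixed list, and each of the 10 had a row among the 35602 gene symbols counted. Glycam1, Madcam1, Chst4, Fut7 and Ackr1 stand for the venules, and Stab2, Lyve1, Prox1, Flt4 and Pdpn for sinus and lymphatic endothelium. The list was drawn up with the counts of these same libraries known and so was in part selected on the ratio of the counts between them. The members' ratios are therefore descriptions, with no test.

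The tumours came from 2 treatment groups with 1 library each. Mice of one group received a PD-1 inhibitor by injection into the peritoneal cavity, and those of the other received that injection together with acupuncture. The PD-1 inhibitor, which blocks a receptor that restrains T cells, was therefore common to both groups, and no untreated tumour is analysed here. The sources used here do not give the strain, the age, the origin of the tumour, the acupuncture points or the number of animals behind each library.

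High endothelial venules are the post-capillary venules of lymph nodes, where lymphocytes in the blood are caught, roll, stop and cross the vessel wall. Their plump endothelial cells coat mucin-like proteins with sulphated, fucosylated sugars, the peripheral node addressin that lymphocytes bind, and venules of the same kind can form in inflamed tissue and in tumours. Lymphatic vessels carry fluid and cells from tissue to the node, and their identity is kept by the transcription factor PROX1 and by signalling of VEGF-C through VEGFR-3. In the node, lymph passes through sinuses whose lining cells carry scavenger receptors.

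The library without acupuncture held 105728292 counts and that with acupuncture 60752043, and levels are given as scaled CPM, counts per 1000000 of library sizes adjusted by edgeR's TMM factors. With 1 library per group there is no replicate error, no test between groups was possible, and intervals given here cover counting error only. Each ratio divides the level with acupuncture by the level without, and its 95% interval comes from the exact Clopper-Pearson limits. A gene counts as higher or lower when it differed by at least 2-fold and its interval excludes 1, and as between otherwise. These calls cover the 18687 genes whose counts in both libraries summed to 20 or more. Epithelial markers that fit the tissue label were abundant, with Krt8 at 1564 and 1060 scaled CPM and Krt18 at 1432 and 988, without acupuncture and then with it, an order kept throughout. Of 12 epithelial markers 3 were lower, none was higher and none was at 0, with sums of 4061 and 2758 CPM.

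Of the 10 members, 7 were higher with acupuncture, none was lower and 3 were in between. Their median log2 ratio was 2.13. Of all genes tested, 9.21% were higher and 4.9% lower, and their median log2 ratio was 0.0003. Because the members were picked with this contrast in view, nothing is read from that difference. By role, all 5 venule genes were higher (median log2 ratio 2.74). Of the sinus and lymphatic genes 2 were higher and 3 between (median 0.28). Nothing is read from this split either, for the same reason. In bulk tissue, more cells of a type and more RNA per cell cannot be told apart.

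Glycam1 encodes a small secreted mucin that carries such sugars on high endothelial venules, and lactating mammary epithelium makes it too. It had 4 counts (0.0392 scaled CPM, exact Poisson 95% interval 0.0107 to 0.1) in the tumour without acupuncture and 4923 counts (78.2, interval 76.1 to 80.5) in the tumour with it. The level in the first library was close to the floor of detection and the level in the second was above 83.8% of the genes tested. The ratio was 1997-fold (779 to 7332), rank 1 of 18687 by log2 ratio. Glycam1 alone made up 0.0562% of the members' summed counts in the first library and 46.8% in the second, and without it the summed members had a ratio of 1.27 in place of 2.39.

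Other genes of lactating mammary epithelium that had enough counts were lower or between. Of 13 genes of lactating mammary epithelium, 8 had enough counts, of which 5 were lower, none was higher and 3 were between, with summed levels of 539.6 and 486 scaled CPM. Nearly all of both sums came from the widely expressed Xdh (177.1 and 182 CPM) and Plin2 (357.4 and 300.5). Beta-casein, Csn2, had 20 and 0 counts, alpha-lactalbumin, Lalba, had 23 and 0, and the alveolar transcription factor Elf5 had 53 and 0. Against a floor of 3 counts per library these were 4.11-fold, 4.73-fold and 10.9-fold lower, with exact intervals from 3.04-fold, 3.54-fold and 8.55-fold. Kappa-casein, Csn3, was level at 3.24 and 3.31 CPM, and whey acidic protein, Wap, had 0 and 2 counts. Also near 1 were the abundant fat-globule genes Xdh (ratio 1.03) and Plin2 (0.841). What mammary epithelium added to Glycam1 was not tested.

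Chst4 encodes the sulphotransferase that adds the sulphate of the node addressin and, of the enzymes in that pathway, is the one most restricted to high endothelial cells. It had 0 counts and 120 counts. The 0 allows up to 0.0294 scaled CPM, and the other library held 1.91, so Chst4 was at least 64.9-fold higher. By log2 ratio it ranked 14 of 18687. Its relative Chst2, which many cells use, was at 54.4 and 44.0 CPM. For each 100 Chst2 counts there were 0 Chst4 counts in the first library and 4.33 in the second.

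Fut7 encodes the fucosyltransferase that completes the selectin-binding sugar, in venules and also in leukocytes. It had 55 and 126 counts, 0.539 and 2.0 scaled CPM, a 3.72-fold ratio (2.69 to 5.20). The second enzyme with this activity, Fut4, was level at 3.46 and 3.35 CPM. Fut7 counts per 100 Fut4 counts were 15.6 and 59.7, a 3.83-fold ratio (2.64 to 5.60) that does not depend on library scaling. Markers of leukocytes that can carry Fut7 differed in opposite directions between the libraries. All 10 T cell markers were higher (summed 23.2 and 142.5 CPM) and 7 of 10 neutrophil markers were lower, none higher (summed 219.4 and 26.2 CPM), with none at 0 counts in either list. Their part in the Fut7 ratio was not tested.

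Madcam1 encodes the addressin of mucosal venules, bound by the integrin α4β7, and in mouse lymph nodes it is also found on sinus-lining and marginal reticular cells. It had 26 and 75 counts, 0.255 and 1.19 scaled CPM, 4.68-fold apart (2.96 to 7.62). The related adhesion receptor Vcam1 was level at 147.1 and 140.1 CPM, so Madcam1 per Vcam1 count differed 4.91-fold (3.11 to 8.01). Both chains of the integrin were higher in the library with more Madcam1. Itgb7 was at 21.6 and 55.01 CPM (2.55-fold, 2.42 to 2.69). Itga4 was at 12.2 and 24.5 (2.0-fold, 1.86 to 2.16).

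Ackr1, the atypical chemokine receptor of venular endothelium that moves chemokines across the vessel wall, had 31 and 136 counts. These are 0.304 and 2.16 scaled CPM, a 7.12-fold ratio (4.79 to 10.9). Relative to P-selectin, Selp, another venular gene, it differed 5.62-fold (3.69 to 8.77). Red cell precursors also make ACKR1. Of 10 erythroid markers 4 were higher, none lower, 5 between and 1 had too few counts, and their sums were 415.4 and 814.8 CPM, with none at 0. Hbb-bs was 2.58-fold higher and Alas2, of haem synthesis, 2.69-fold higher. The erythroid factor Klf1 had 28 and 11 counts. What the red cell lineage added to Ackr1 was not tested. Exons of Ackr1 overlap those of Cadm3 on the same strand in the annotation, and Cadm3 was at 13.6 and 24.8 CPM, so some reads could belong to either gene.

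**Figure D1:**
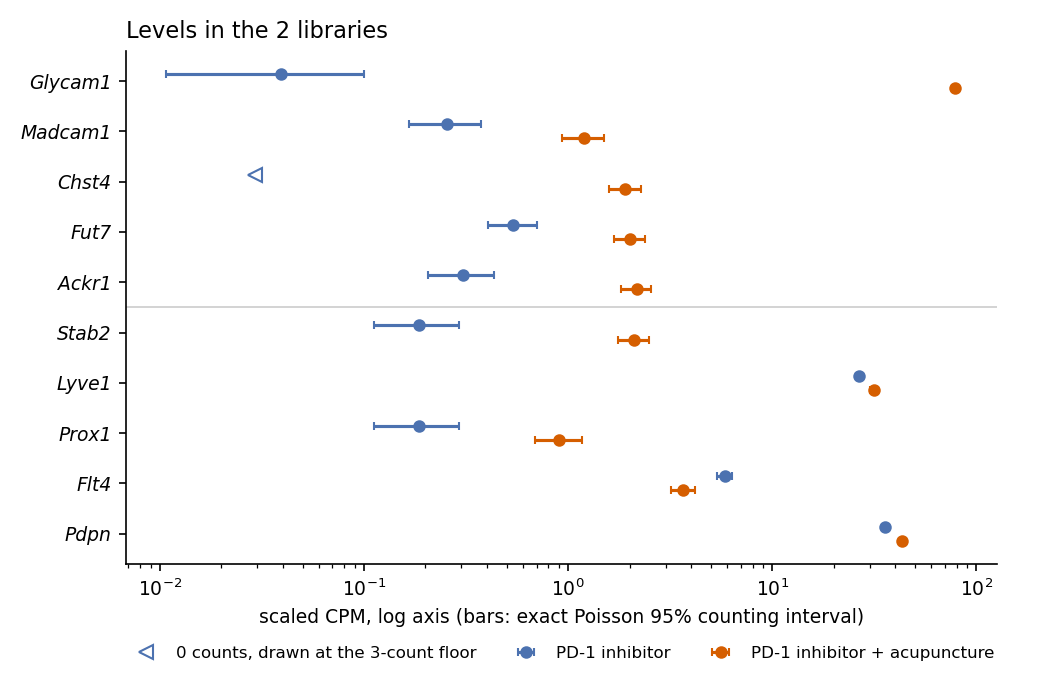
Level of each member without acupuncture (blue) and with it (orange), both under the PD-1 inhibitor, in scaled CPM on a log axis, with exact Poisson 95% counting intervals and the venule genes above the grey line. The 5 venule genes, Stab2 and Prox1 lay apart in the 2 libraries, by 3.72-fold for Fut7 up to 1997-fold for Glycam1, while Lyve1, Pdpn and Flt4 differed by less than 2-fold. The open triangle marks the 0 counts of Chst4.

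The bases just upstream of the start sites of 4 of the venule genes are shown because these genes stood higher together. Fut7, with 2 start sites, was searched but is not printed. RefSeq promoters on the GRCm38.p6 assembly were matched by symbol for 9 of the 10 members, with 11 start sites, and not for Lyve1. The counts were made on another assembly. Each stretch holds the 250 bases before the start site, 5′ to 3′ on the gene's strand, and capitals mark any match on either strand to 4 letter patterns. The patterns were GGGN followed directly by CTTTCC (a form of the NF-kB site), AGGTCA (bound by nuclear receptors), CAGGAAG (an ETS site) and AACAAT (a SOX site), chosen after the sequences were seen, and no matches overlapped.
Glycam1: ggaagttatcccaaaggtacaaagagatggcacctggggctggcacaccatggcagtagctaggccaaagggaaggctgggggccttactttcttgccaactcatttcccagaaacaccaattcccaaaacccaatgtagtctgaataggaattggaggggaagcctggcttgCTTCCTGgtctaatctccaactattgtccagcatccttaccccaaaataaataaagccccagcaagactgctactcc
Madcam1: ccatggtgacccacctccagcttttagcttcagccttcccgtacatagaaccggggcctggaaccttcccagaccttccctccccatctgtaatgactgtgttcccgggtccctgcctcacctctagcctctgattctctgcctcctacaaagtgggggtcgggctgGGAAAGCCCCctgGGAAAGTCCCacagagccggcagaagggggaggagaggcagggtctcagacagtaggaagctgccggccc
Chst4: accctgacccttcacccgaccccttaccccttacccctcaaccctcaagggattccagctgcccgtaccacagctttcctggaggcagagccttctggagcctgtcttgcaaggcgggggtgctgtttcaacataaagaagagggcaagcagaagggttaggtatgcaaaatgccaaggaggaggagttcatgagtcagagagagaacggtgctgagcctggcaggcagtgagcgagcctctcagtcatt
Ackr1: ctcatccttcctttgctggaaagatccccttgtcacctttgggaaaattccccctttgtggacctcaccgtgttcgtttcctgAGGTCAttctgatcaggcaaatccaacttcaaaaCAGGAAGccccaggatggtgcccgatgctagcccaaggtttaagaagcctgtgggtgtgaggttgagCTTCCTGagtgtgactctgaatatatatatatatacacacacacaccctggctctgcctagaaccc
The stretches lie at chr15:103565082-103565331 on the minus strand for Glycam1, chr10:79664309-79664558 on the plus strand for Madcam1, chr8:110039335-110039584 on the minus strand for Chst4 and chr1:173333504-173333753 on the minus strand for Ackr1. In Madcam1 the NF-kB pattern occurs 2 times on the opposite strand, at 83 to 74 and 70 to 61 bases before the start. Among all 32851 promoters of the table, 0.502% hold that pattern in the same window and 3, Madcam1 included, hold it 2 or more times. Because the pattern was chosen with the Madcam1 sequence in view, nothing is read from its rarity. Glycam1 has 1 ETS match, at 77 to 71 bases, and Ackr1 has 2. Of all promoters 10.8% hold 1 or more and 0.828% hold 2 or more. The nuclear receptor pattern is in 3 of the members' 11 windows, those of Ackr1, Stab2 and Pdpn, against 14% of all promoters. No match to the SOX pattern was found in the members' windows, against 9.42% of all promoters, and in Chst4 and both Fut7 windows none of the 4 patterns was found. A match is a string of letters, and no match says only that these letters are not in this window.

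Stab2, the hyaluronan scavenger receptor of lymph node, spleen and liver sinus endothelium, had 19 and 132 counts. Its levels were 0.186 and 2.10 scaled CPM, 11.3-fold apart (6.94 to 19.3), rank 166 by log2 ratio. The paralogue Stab1, which macrophages share, was far more abundant and stood the other way, at 238.9 and 140.8 CPM (1.70-fold lower, 1.66 to 1.74). Stab2 counts per 100 Stab1 counts were 0.0779 and 1.49, a 19.1-fold ratio (11.8 to 32.8). The annotation places Gm16268, not analysed here, on the opposite strand across Stab2 exons, and the sources do not say whether counting used the strand.

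Prox1, the transcription factor that sets lymphatic identity, had 19 and 57 counts, which is 0.186 and 0.906 scaled CPM and 4.87-fold (2.85 to 8.66). Its antisense neighbour Prox1os had 0 and 2 counts. Prox1 works with COUP-TFII, encoded by Nr2f2, which was at 16.8 and 18.9 CPM, so Prox1 per 100 Nr2f2 counts was 1.11 and 4.79 (4.31-fold, 2.51 to 7.71). Liver cells and slow muscle fibres also use Prox1. Of 8 hepatocyte markers only 4 had enough counts, 3 of them higher, with sums of 0.980 and 4.70 CPM. Ttr and Cyp3a11 were at 0 in both libraries, Tat in the first and Apoa1 in the second. Of 12 skeletal muscle markers 9 were higher, 1 lower, 1 between and 1 had too few counts, with sums of 182 and 2037 CPM and none at 0. The fast myosin Myh4 was 32.4-fold higher. Of slow-fibre genes, Tnni1 was lower (139 and 17 counts), Tnnc1 was between (311 and 98), and Myh7 had too few counts to call (6 and 6). What muscle or liver-type transcripts added to Prox1 was not tested.

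Flt4 encodes VEGFR-3, the receptor of lymphatic growth, which tumour blood vessels can also carry. It had 597 and 230 counts, 5.85 and 3.66 scaled CPM, and was the member with a ratio below 1, at 1.60-fold lower (1.37 to 1.87). That is short of the 2-fold limit, and with the epithelial marker list set to a median of 0 the ratio of 0.914 had an interval across 1 (0.782 to 1.07). Flt4 kept the same proportion to the blood endothelial receptor Flt1, at 8.11 and 8.05 Flt4 counts per 100 Flt1 counts (0.992-fold, 0.843 to 1.16). Relative to Kdr, the main receptor of VEGF-A, it was lower, at 29.0 and 15.1 per 100 (0.521-fold, 0.439 to 0.617). Prox1 and Flt4, both lymphatic genes, had ratios on opposite sides of 1. There were 3.18 Prox1 counts per 100 Flt4 counts in the first library and 24.8 in the second, a 7.79-fold ratio (4.44 to 14.1).

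Lyve1, the hyaluronan receptor of lymphatic endothelium and of a class of tissue-resident macrophages, had 2725 and 1984 counts. At 26.7 and 31.5 scaled CPM it differed by 1.18-fold (1.11 to 1.25). Markers of LYVE1-bearing macrophages were abundant in both tumours, with sums of 1007 and 794.5 CPM over 10 genes, of which 1 was higher, none lower, 9 between and none at 0. Mrc1 was at 291.7 and 215.2 CPM and Folr2 at 34.3 and 35.6, whereas Timd4 was 3.26-fold higher. None of 10 general macrophage markers was past 2-fold (summed 3572 and 3112 CPM, none at 0). Lyve1 per 100 Mrc1 counts was 9.15 and 14.7 (1.60-fold, 1.51 to 1.70). The share of Lyve1 reads from macrophages was not tested.

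Pdpn, the mucin podoplanin of lymphatic endothelium, reticular cells, fibroblasts and some tumour cells, had 3647 and 2730 counts. At 35.7 and 43.4 scaled CPM it differed by 1.21-fold (1.16 to 1.28). Of 12 fibroblast markers 2 were higher, none lower and 10 between, with sums of 7725 and 10463 CPM and none at 0. The collagen Col3a1 was 1.57-fold higher and Fap, of activated fibroblasts, 2.34-fold higher. Relative to Pdgfrb, carried by fibroblasts and pericytes, Pdpn was 1.42-fold higher (1.33 to 1.52), but Pdgfrb itself was at 61.4 and 52.5 CPM. The summed fibroblast markers had a ratio of 1.35, above the 1.21 of Pdpn, so the direction depends on the gene compared. Of 7 podoplanin partners with enough counts only Ccl21a was higher and none was lower, and the platelet receptor of podoplanin, Clec1b, had 6 and 5 counts. Of 8 mesothelial and nerve markers, cell types that can also carry podoplanin, 7 had enough counts and 2 were higher, none lower, with sums of 134 and 105.1 CPM and Upk3b at 0 in the second library. How far fibroblasts set the Pdpn level was not tested.

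**Figure D2:**
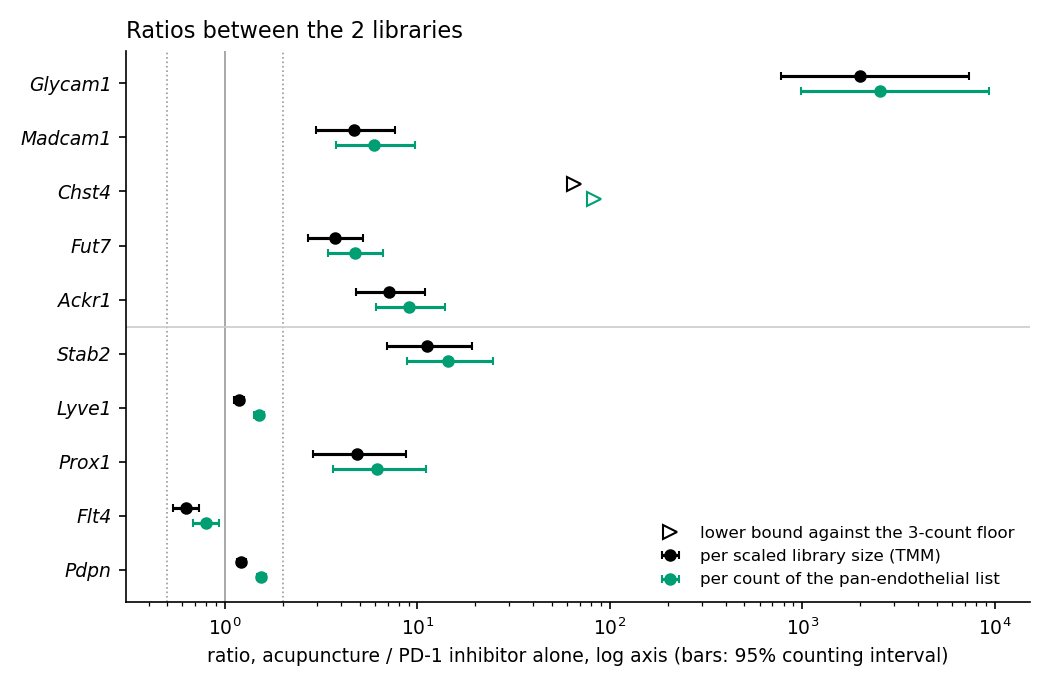
Ratio of each member, with over without acupuncture, on a log axis with 95% counting intervals, per scaled library size (black) and per count of the pan-endothelial list (green). Solid and dotted lines mark 1 and a 2-fold difference, and triangles give the lower bounds of Chst4 (64.9 and 82.5). With either denominator 7 members lay beyond 2-fold, Lyve1 and Pdpn lay between 1 and 2, and Flt4 lay below 1.

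The members were also set against endothelium as a whole. Of 18 pan-endothelial genes none was higher, 1 was lower and 17 were between, with a median log2 ratio of -0.44, which became 0.11 with the epithelial list at a median of 0. Their summed counts were 61684 and 29911, or 604.2 and 475.4 scaled CPM, with none at 0. The most abundant were Eng at 107.8 and 120 CPM and Pecam1 at 95.3 and 71.3, and the tight junction gene Cldn5 was 3.12-fold lower. Per 1000 of these counts there were 0.0648 and 164.6 counts of Glycam1, 0 and 4.01 of Chst4, and 0.422 and 2.51 of Madcam1. Fut7 stood at 0.892 and 4.21, Ackr1 at 0.503 and 4.55, Stab2 at 0.308 and 4.41, and Prox1 at 0.308 and 1.91. The ratios per endothelial count ran from 4.72-fold for Fut7 (3.42 to 6.61) to 2538-fold for Glycam1 (991 to 9319) among these genes. Lyve1 and Pdpn were 1.5-fold and 1.54-fold higher per endothelial count, and Flt4 was 1.26-fold lower (1.08 to 1.47).

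The order of the members by level per transcript length also differed between the libraries. Scaled CPM was divided by the kilobases of the longest coding transcript, taken from an annotation on GRCm38. In the tumour without acupuncture Pdpn (19.7 CPM per kb), Lyve1 (9.23) and Flt4 (0.935) led. Ackr1 (0.263), Fut7 (0.260) and Madcam1 (0.177) followed with overlapping counting intervals, then Glycam1 (0.0611), Prox1 (0.0235) and Stab2 (0.0226). The intervals of these last 3 overlapped too, and that of Glycam1, which rests on 4 counts, also reached that of Madcam1. In the tumour with acupuncture Glycam1 came first at 122.1, ahead of Pdpn (23.9), Lyve1 (10.9) and Ackr1 (1.87). Fut7 (0.965), Chst4 (0.889) and Madcam1 (0.830) could not be ordered beyond their counting intervals, and the interval of Flt4 (0.584) overlapped that of Madcam1. Stab2 (0.255) and Prox1 (0.114) were last.

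**Figure D3:**
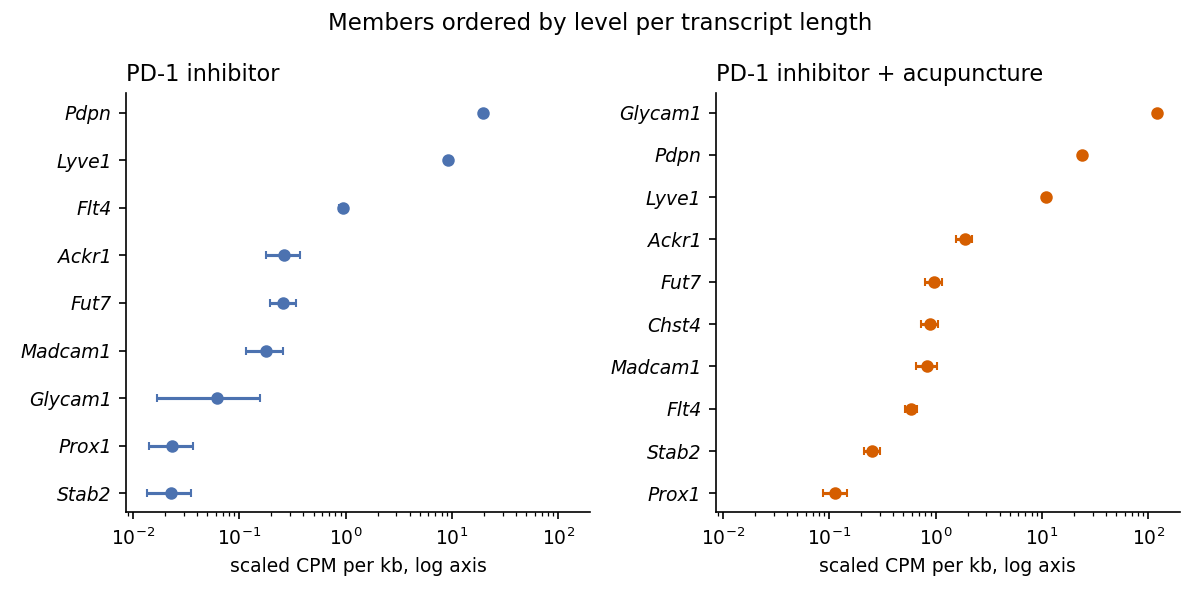
Members ordered by scaled CPM per kilobase of the longest coding transcript, on a log axis with exact Poisson 95% counting intervals, without acupuncture (left) and with it (right). Glycam1 is near the bottom on the left (0.0611) and at the top on the right (122.1), and Flt4 is at 0.935 on the left and 0.584 on the right. Chst4 is not drawn on the left, where it had 0 counts.

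Genes that build, regulate or use the venule's ligands differed unevenly. Of 13 enzymes and transporters of ligand synthesis, shared by many cell types, none was past 2-fold, and their median log2 ratio was -0.10. The most abundant were the galactosyltransferase B4galt1, at 303.8 and 186.5 CPM, and the sulphate donor enzyme Papss1, at 120.7 and 132.2. Of 8 selectins and protein scaffolds for the ligands 3 were higher and none lower. E-selectin, Sele, had 99 and 175 counts (2.87-fold, 2.23 to 3.71) and Cd300lg, which encodes the venular mucin nepmucin, had 219 and 355 (2.63-fold, 2.22 to 3.13). The broad scaffolds Cd34 (74.8 and 107 CPM) and Podxl (88.7 and 62.3) were between. Per 100 Cd34 counts there were 0.0524 and 73.1 counts of Glycam1.

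Among 12 homing receptors and adhesion partners 6 were higher and none lower. Their sums were 1410 and 1323 CPM with none at 0, and the most abundant, Itgb1, was between at 1028 and 823.5 CPM. Ccr7, the receptor that stops lymphocytes at the venule wall, was 2.45-fold higher (2.23 to 2.68), and S1pr4, a lymphocyte sphingolipid receptor, 3.58-fold higher. Of 5 chemokines and enzymes of node entry 3 were higher. The CCR7 ligands Ccl21a and Ccl19 had 25 and 3995 counts and 14 and 1377 counts, though Ccl21a has near-identical copies among which its reads could be split. Cxcl13, the follicle chemokine, was 15.6-fold higher (12.6 to 19.5), while Cxcl12 (51.7 and 48.9 CPM) and the venular lysophospholipase Enpp2 (45.1 and 42.8) were level within 2-fold.

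The lymphotoxin pathway keeps high endothelial venules mature. Of 13 genes with enough counts listed for this and related pathways, 2 were higher, none lower and 11 between. Lymphotoxin alpha, Lta, had 61 and 88 counts (2.34-fold, 1.67 to 3.30) and the RANK ligand Tnfsf11, made by marginal reticular and T cells, had 79 and 125 (2.57-fold, 1.92 to 3.45). Short of the limit, lymphotoxin beta, Ltb, had 1046 and 1233 counts (1.91-fold higher, 1.76 to 2.08). Tnfsf14 stood the other way, with 463 and 147 counts (1.94-fold lower, 1.61 to 2.35). The receptor Ltbr was at 67.1 and 61.9 CPM and the downstream subunit Nfkb2 at 187.4 and 170.6. Nkx2-3, the homeobox gene needed for Madcam1 in mouse gut and spleen, had 2 and 0 counts.

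Of the chemokines that ACKR1 binds and the other atypical receptors, 12 genes in all, 2 were higher, 4 lower and 6 between. Cxcl3 and Cxcl2, which draw neutrophils, had 973 and 20 counts and 1341 and 99 counts, 30.0-fold (19.3 to 49.3) and 8.35-fold (6.80 to 10.4) lower. Ccl2, which draws monocytes, was at 64.6 and 51.4 CPM. Ackr4, the scavenger of CCR7 ligands on the lymph node sinus ceiling, was low in both, at 15 and 48 counts (5.19-fold, 2.86 to 9.98).

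Lymphatic growth factors and regulators were mostly between. Of 16 growth factors and receptors none was higher and 1 lower. Vegfc, the main ligand of VEGFR-3, was at 27.0 and 18.5 CPM (1.46-fold lower, 1.36 to 1.56) and Vegfd at 4.5 and 7.71 (1.71-fold higher, 1.51 to 1.95). Ccbe1, which helps to activate VEGF-C, was 1.90-fold lower, short of the limit, and adrenomedullin, Adm, was 3.0-fold lower (2.76 to 3.26). None of 11 lymphatic transcription factors was past 2-fold, with Sox18 at 10.3 and 6.04 CPM and Foxc1 at 47.8 and 47.7. With the epithelial list at a median of 0, 5 growth factor genes and 1 transcription factor became higher.

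Genes of lymphatic vessel walls and node sinuses followed. Of 19 vessel and valve genes 4 were higher and none lower. Mmrn1, a matrix protein typical of lymphatic endothelium, had 13 and 132 counts (16.5-fold, 9.31 to 31.8) and Reln, secreted by lymphatic endothelium, had 10 and 42 (6.81-fold, 3.36 to 15.2), while the widely used Gja1 and Cd9 were between. Of 16 genes of sinus endothelium and sinus macrophages 7 were higher and none lower, while their sums were 760 and 571.5 CPM. The most abundant of them, Mrc1 (291.7 and 215.2 CPM) and Stab1 (238.9 and 140.8), were between with ratios below 1. Marco, a scavenger receptor of medullary sinus cells and of macrophages, had 0 and 164 counts. It was 88.7-fold higher against the 3-count floor, with an exact interval from 71.3-fold. Btnl9 had 21 and 70 counts (5.41-fold, 3.28 to 9.28). Gpr182, of sinus and lymphatic endothelium, had 58 and 125 counts (3.50-fold, 2.54 to 4.86). Of 13 hyaluronan genes, the ligand system of LYVE1 and STAB2, 2 were higher and none lower. The synthase Has1 was 6.28-fold higher (5.58 to 7.09), while the more abundant Has2 (132.2 and 88.2 CPM) and the receptor Cd44 (601.1 and 409.5) were between.

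Markers of the cells that surround these vessels in a lymph node stood higher in the same library. All 10 B cell markers were higher, with summed levels of 4.52 and 143.3 CPM and none at 0. All 10 T cell markers were higher, as given beside Fut7. Of 11 genes of follicular dendritic and reticular stroma 6 were higher and none lower, with sums of 1111 and 932.1 CPM that the widely expressed Clu and Mfge8 dominate, and with none at 0. Of these 6, Cr2 is also among the B cell markers, and Ccl19, Ccl21a, Cxcl13 and Tnfsf11 were already counted in the lists above. The remaining gene was Des, at 32.3 and 110.2 CPM. Adipocyte markers, of which 11 of 12 were higher, summed to 521.1 and 2011 CPM with none at 0. Ucp1 of brown fat had 5 and 1251 counts (406-fold, 173 to 1252). Whether tissue that lies next to a mammary tumour, such as fat, muscle or lymph node, was sampled to a different extent cannot be told apart from the treatment with 1 library per group.

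**Figure D4:**
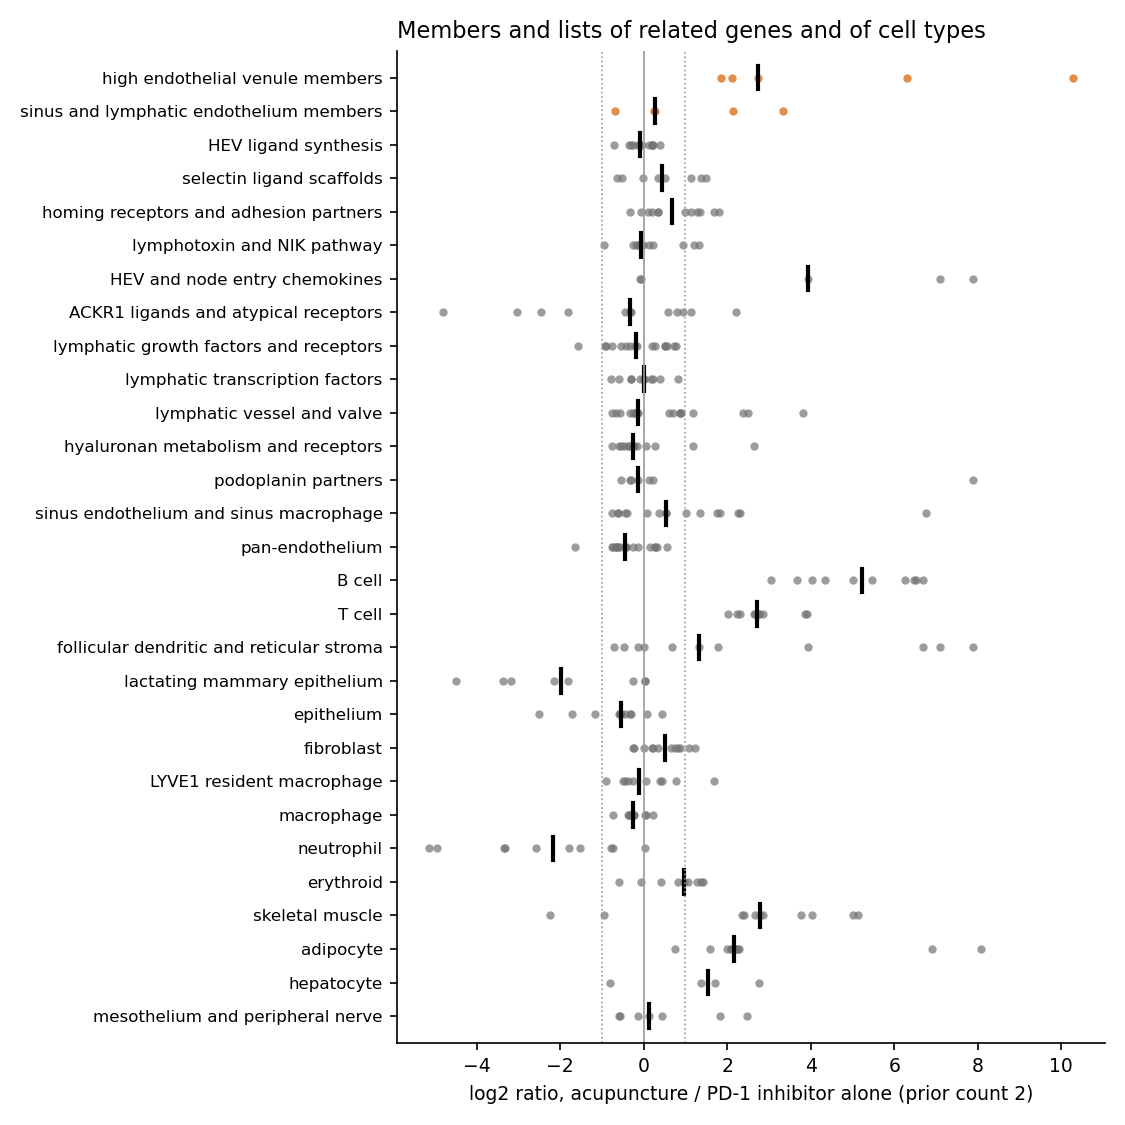
Log2 ratios of the members (orange, by role) and of the genes in each list of related genes and cell types (grey), with over without acupuncture, among genes whose counts summed to 20 or more. Black bars are list medians and dotted lines a 2-fold difference. The venule members have a median of 2.74 and run from 1.85 to 10.3. Medians of cell type lists include 5.23 for B cells, 2.80 for skeletal muscle, 2.70 for T cells, 2.17 for adipocytes and -0.44 for pan-endothelium. The members were chosen with their ratios known, so nothing is read from their place among the lists.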

How the data were processed

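Each library was made from total RNA of tumour tissue with a SMARTer messenger RNA kit, per the labels' protocols. The authors deposited raw whole-number counts per gene symbol, 1 column per library, with no normalization. The submitters' processing notes list the builds GRCm39 and mm39. The aligner, the counter and any use of strand were not given in the sources used here. No line lacked a gene name.

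TMM factors were computed with edgeR 4.0.16 in R 4.3.3 on genes whose counts summed to 20 or more (0.966 and 1.04). Log2 ratios carry a prior count of 2. Where a library had 0 counts, folds use a floor of 3 counts per library in place of 0. Such a fold is a bound against that floor only, and the exact interval starts below it. No source used here mentions molecular identifiers, so reads may repeat a molecule and every interval or floor reflects counting error alone. Ratios of 2 genes within a library carry an exact conditional 95% interval of the odds ratio.

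Members, lists (27 with 315 entries), gene pairs and motifs were chosen with earlier results of these data known. From each list the 2 most abundant genes and the 2 with the largest log2 ratios could be named. The following were named after seeing their values, outside this rule: Cadm3, Prox1os, Chst2, Fut4, Selp, Itga4, Itgb7, Ccr7, Cxcl13, Ltb, Tnfsf14, Ltbr, Nkx2-3, Ackr4, Vegfc, Vegfd, Kdr, Flt1, Nr2f2, Gpr182, Has2, Clec1b, Csn2, Csn3, Wap, Folr2, Klf1, Tnni1, Tnnc1, Myh7, Pdgfrb, Des and the genes at 0. Calculations were tested on simulated data. Alternatives used DESeq2 1.42.0 size factors, upper quartiles, totals, other prior counts, count minimums and fold limits, thinning, and list-based scaling. Scripts ran in Python 3.11.15 with scipy 1.17.1, pandas 2.3.3, matplotlib 3.10.9 and numpy 2.4.6. Transcript lengths and overlaps came from GENCODE M21 on GRCm38, a different build from that of the counts.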

Additional observations from a re-analysis of the deposited data

How the results depend on the processing

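The same 7 members were past 2-fold under the 6 other scalings and none was lower. With the deeper library thinned to the depth of the other, 7 were higher as well. A count minimum of 100 and a 4-fold limit each left 6 members higher. The members' median log2 ratio ranged from 1.98 (prior count 5) to 2.66 (epithelial list at a median of 0), and no member changed sign. Chst4, with 0 counts in the deeper library, ranged from a log2 ratio of 5.02 to 8.30 with the prior count, and Glycam1 from 9.62 to 10.8. Over all settings Flt4 ranged from -0.68 to -0.13, the latter with the epithelial list at a median of 0. Over all genes, 1721 were higher and 916 lower. The counts became 1055 and 500 with a count minimum of 100, and 678 and 262 with a 4-fold limit. They became 2621 and 501 with the summed pan-endothelial list as denominator, and 3619 and 354 with the epithelial list at a median of 0, which was chosen after the data were seen. These scalings shift the log2 ratios of all genes by 0.35 and 0.55, and total counts by 0.10, so signs of list medians near 0 depend on the scaling. Fewer genes tested, the stricter limit and the shift by construction account for these counts. No paired analysis was possible because each group had 1 library, and leaving out a replicate could not be done for the same reason. At this depth 3 counts are 0.0294 scaled CPM without acupuncture and 0.0477 with it, and Chst4, Glycam1, Stab2, Prox1, Madcam1 and Ackr1 rest on fewer than 40 counts in the first library.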
